A study of Mus musculus with 12 samples.

Results

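The guanylate-binding proteins and the immunity-related GTPases are 2 families of interferon-inducible GTPases, and 10 of their genes were followed here in macrophages of the mouse peritoneal cavity. The members are the rows of the count table whose Ensembl identifier maps to Gbp2, Gbp3, Gbp5, Gbp7, Irgm1, Irgm2, Igtp, Iigp1, Ifi47 or Tgtp1. They make up 10 of 57010 genes in the table: 4 guanylate-binding proteins and 6 immunity-related GTPases. All 10 passed the filter on low counts and were among the 15943 genes tested.

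There were 12 libraries, made by RNA-seq from sorted resident peritoneal macrophages of female mice. These are the large cells of the cavity, recognised by strong F4/80 and weak MHC class II staining. WT naive and Tim4KO naive cells came from wild-type mice and from mice lacking the scavenger receptor Tim4, neither given tumour cells. WT ID8 and Tim4KO ID8 cells came from mice that were 8 weeks old when they received an intraperitoneal injection of ID8ZGO, an ID8 mouse ovarian tumour line that carries ZsGreen and OVA, and were taken 24 h later. Each group held 3 libraries, numbered as in the labels. Only ZsGreen-positive macrophages were kept from injected mice, so that challenge and uptake of tumour material cannot be told apart in these data. The labels give an age for injected mice only. They do not state that the libraries of a group came from separate animals, so the p-values measure the spread between these libraries, which may be technical.

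Both families are switched on by interferons, chiefly interferon-gamma, and act inside the cell. Guanylate-binding proteins are large GTPases that assemble on vacuoles and on bacteria and promote their rupture or the detection of their contents. Immunity-related GTPases fall into effectors, which load onto the membrane of a pathogen's vacuole and destroy it, and regulators of the Irgm type, which sit on the cell's own membranes and hold the effectors inactive there. In macrophages both families are best known from infection with intracellular bacteria and Toxoplasma.

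The regulatory sequence next to these genes was searched for motifs of the interferon response. Promoter windows were taken from the RefSeq table (build GRCm38.p6), which held 9 of the 10 members. The 250 bases before each start were searched on both strands for the core of the interferon-stimulated response element (ISRE; GAAA, then any 2 bases, then GAAA), which IRF proteins and the ISGF3 complex bind, and for the gamma-activated site (GAS; TTC, then any 3 bases, then GAA), through which interferon-gamma acts on many promoters. The ISRE core was found in 8 of 9 members (8 of their 10 windows), against 2.98% of the 32851 windows in the table. The GAS letters were found in 5 of 9 members (5 of 10 windows), against 7.02% of windows, and both occurred in the same window for 5 of 9 members, against 0.332%. Those 5 were Gbp5, Gbp7, Tgtp1, Igtp and Irgm2.

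The 120 bases before the start are given for 7 members, 5′ to 3′ on the gene's strand, because these 7 hold an ISRE core within that stretch. In Gbp5 the ISRE core lay 165 bases upstream, and GAS letters lay 52 and 245 bases upstream. Capitals mark the letters that match either motif, and where 2 ISRE cores overlap they form 1 run.

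Gbp2 (chr3:142620543-142620662, + strand): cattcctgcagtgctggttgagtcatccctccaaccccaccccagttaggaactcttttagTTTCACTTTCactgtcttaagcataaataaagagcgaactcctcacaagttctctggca
Gbp3 (chr3:142559924-142560043, + strand): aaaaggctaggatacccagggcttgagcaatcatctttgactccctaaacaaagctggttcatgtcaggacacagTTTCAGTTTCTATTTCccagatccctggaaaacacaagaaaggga
Gbp7 (chr3:142530216-142530335, + strand): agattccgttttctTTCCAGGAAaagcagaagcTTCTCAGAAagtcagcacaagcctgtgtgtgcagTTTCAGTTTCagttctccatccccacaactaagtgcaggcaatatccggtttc
Irgm1 (chr11:48871421-48871540, - strand): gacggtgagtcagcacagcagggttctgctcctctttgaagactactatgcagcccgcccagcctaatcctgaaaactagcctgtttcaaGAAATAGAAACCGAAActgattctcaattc
Irgm2 (chr11:58214857-58214976, + strand): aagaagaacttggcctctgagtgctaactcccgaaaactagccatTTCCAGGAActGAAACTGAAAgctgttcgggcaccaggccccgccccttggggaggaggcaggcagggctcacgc
Igtp (chr11:58199436-58199555, + strand): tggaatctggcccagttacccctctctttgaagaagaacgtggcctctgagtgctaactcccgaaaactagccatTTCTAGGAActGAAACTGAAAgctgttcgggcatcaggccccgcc
Tgtp1 (chr11:48992247-48992366, - strand): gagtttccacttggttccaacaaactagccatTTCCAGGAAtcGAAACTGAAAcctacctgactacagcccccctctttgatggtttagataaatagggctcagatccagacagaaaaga

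In Irgm2, Igtp and Tgtp1 the GAS letters stand just before the ISRE core, with ct or tc between them. The pair began 75 bases upstream of the start in Irgm2, 45 in Igtp and 88 in Tgtp1. The windows of Igtp and Irgm2, neighbours on chromosome 11, share an identical run of 55 bases. Gbp2, the member with the clearest response in these libraries, held 1 ISRE core, 59 bases upstream, and no GAS letters within 250 bases. Gbp3 and Irgm1 each held 2 overlapping ISRE cores and no GAS letters. Gbp3 has 2 windows in the table, and the other one held neither motif, as did that of Ifi47. A match is a description of letters and does not show that a factor binds there.

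**Figure D1:**
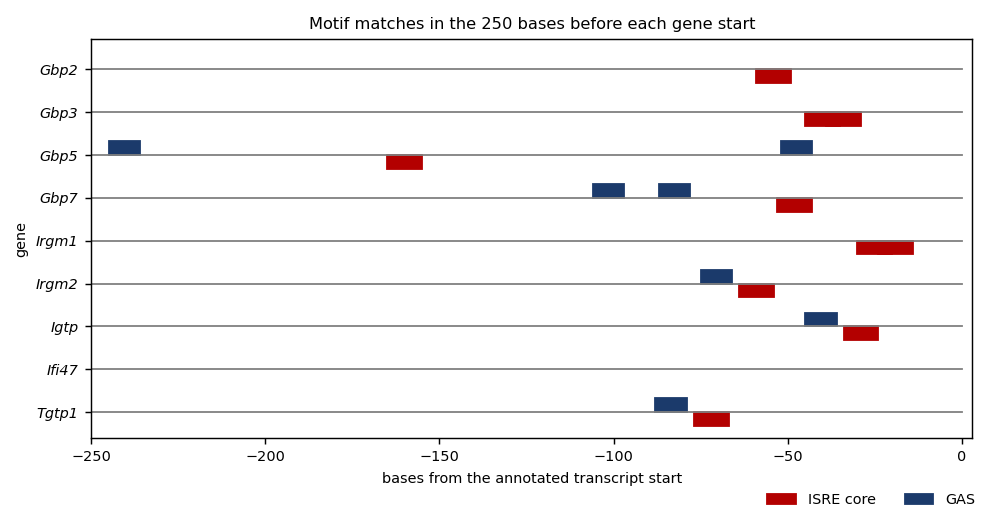
Positions of the ISRE core (red) and of the GAS letters (blue) in the 250 bases before the annotated start of 9 members, with distance from the start in bases on the x axis and 1 row per gene. 8 of 9 genes hold an ISRE core and 5 of 9 also hold GAS letters; for Gbp3, only 1 of its 2 windows has matches.

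Library totals ran from 7358559 to 23170244 counts, and TMM scaling factors from 0.896 to 1.09. Timd4, which encodes Tim4, lay between 882 and 1489 CPM (counts relative to the library total, scaled by TMM) in the 6 WT libraries and between 1.38 and 7.71 CPM in the 6 Tim4KO libraries, so that no library went against its genotype label. All 10 marker genes of large peritoneal macrophages were detected in every library, with a summed level of 18184 to 25049 CPM. Markers of T and NK cells, the main makers of interferon-gamma, summed to 4.34 to 11.1 CPM, and 1 of the 11 was detected in all libraries. Counts over olfactory and vomeronasal receptor genes, taken as background reads, were lowest for WT ID8 3 (5.57 CPM, here without TMM scaling) and highest for WT naive 1 (862 CPM). All WT ID8 libraries (5.57 to 246 CPM) lay below all WT naive libraries (314 to 862 CPM). The Tim4KO groups overlapped, at 264 to 470 CPM when naive and 39.5 to 353 CPM after challenge.

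Libraries of the same group differed widely for these genes. Tim4KO naive 1 had the highest level of its group for 10 of 10 members, while 36.4% of all tested genes were highest there. On the log2 scale its median difference from the mean of the other Tim4KO naive libraries was 1.65 over the 10 members, 0.86 over the guanylate-binding members and 1.94 over the immunity-related members, against 0.0049 over all tested genes. Within its group it was also the highest for summed markers of T and NK cells (6.48 CPM against 4.39 and 5.86). The same held for neutrophils (9.27 against 7.46 and 7.72) and B cells (13.3 against 9.19 and 8.34). It held too for large peritoneal macrophages (25049 against 23004 and 21445), and for small ones with monocytes and dendritic cells (184 against 173 and 154). Epithelial or tumour cell markers were lowest there (6.89 against 7.32 and 8.73), and those of mast cells and eosinophils lay in between. Of the T and NK cell markers 1 of 11, and of the neutrophil markers 1 of 7, were detected in all libraries. The part of these markers in its high levels was not tested. Among the challenged libraries, WT ID8 2 was highest of its group for 9 of 10 members, with a median difference of 0.83, against 35.6% of all tested genes. WT ID8 3 was lowest for 8 of 10, by a median of -0.70, and 47.8% of all tested genes were lowest there, with a median of -0.15. WT naive 1 and Tim4KO ID8 2 were each highest of their group for 10 of 10 members, by medians of 0.65 and 0.42, where 36.0% and 36.4% of all tested genes were highest.

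Among the guanylate-binding members, Gbp2 rose after challenge in both genotypes. Gbp2 encodes a guanylate-binding protein that gathers on Toxoplasma vacuoles and on cytosolic bacteria. WT naive libraries 1 to 3 had 147, 77.1 and 83.8 CPM, and WT ID8 libraries had 237, 402 and 212 CPM. The Tim4KO naive libraries had 134, 84.0 and 77.4 CPM, against 248, 353 and 249 CPM after challenge. Every challenged library lay above every naive library. The increase was 2.77-fold in WT cells (log2 1.47, SE 0.33, edgeR adjusted p = 0.00615) and 2.87-fold in Tim4KO cells (log2 1.52, SE 0.33, edgeR adjusted p = 0.00912). Gbp2 was the 1 member of 10 called in each genotype, where 31.8% of all tested genes were called in WT cells and 16.6% in Tim4KO cells. Counted upward only, 19.5% and 11.5% of all tested genes were called, and downward 12.3% and 5.06%. With upper-quartile scaling in place of TMM the split over all tested genes shifted from 61.3% to 33.9% higher among the calls in WT cells and from 69.5% to 48.7% in Tim4KO cells, while Gbp2 stayed called in both. Summed neutrophil markers also stood higher in all challenged libraries (9.77 to 27.4 CPM) than in naive ones (6.29 to 9.27 CPM), with 1 of the 7 markers detected in all libraries. Markers of mast cells and eosinophils were lower in all challenged libraries (2.76 to 8.30 CPM, against 11.2 to 32.2 CPM), as were epithelial or tumour cell markers (1.60 to 5.35 CPM, against 5.74 to 25.1 CPM), with 2 of 7 and 1 of 9 detected in all libraries. The part of these markers in the result was not tested.

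The call for Gbp2 in WT cells held in 12 of 12 fits that left out 1 library, with log2 changes of 1.17 to 1.83. In Tim4KO cells it held in 11 of 12, and was lost without Tim4KO naive 2 (edgeR adjusted p = 0.0550). No difference in Gbp2 between genotypes was called: Tim4KO minus WT was -0.057 in naive cells (95% interval -0.76 to 0.65) and -0.0043 in challenged cells (95% interval -0.70 to 0.69), both on the log2 scale.

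Gbp3, a second large GTPase of the chromosome 3 cluster, showed smaller differences in the same direction. Gbp3 measured 170.1, 139 and 155 CPM in WT naive and 223, 163 and 129 CPM in Tim4KO naive. After challenge it measured 162, 236 and 262 CPM in WT and 241, 300.01 and 240.5 CPM in Tim4KO cells. The WT groups overlapped through WT ID8 1, whereas all Tim4KO ID8 libraries lay above all Tim4KO naive libraries. Neither difference was called: log2 0.51 in WT cells (SE 0.20, edgeR adjusted p = 0.0651) and 0.60 in Tim4KO cells (SE 0.20, edgeR adjusted p = 0.0551). When Tim4KO naive 1 was left out, Gbp3 was called in both, at 0.55 in WT cells (edgeR adjusted p = 0.0273) and 0.85 in Tim4KO cells (edgeR adjusted p = 0.00826). It was also called in both with no filter on low counts (edgeR adjusted p = 0.00132 and 0.002) and without WT ID8 1. In WT cells it was called without Tim4KO naive 3. In Tim4KO cells it was called by limma voom, with only the groups compared and without WT ID8 3. Upper-quartile scaling gave 0.26 in WT and 0.49 in Tim4KO cells, neither called.

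Gbp5, a member linked to assembly of the NLRP3 inflammasome, was the least abundant guanylate-binding member per kilobase of exon. Naive libraries held 14.4, 9.48 and 12.5 CPM in WT and 29.6, 18.6 and 10.2 CPM in Tim4KO cells. Challenged libraries held 21.2, 42.4 and 14.2 CPM in WT and 14.0, 18.7 and 13.0 CPM in Tim4KO cells. WT ID8 2 was the highest library of all, and the groups overlapped in all 4 comparisons. The challenge difference was 1.10 in WT cells (SE 0.44, edgeR adjusted p = 0.0764) and -0.35 in Tim4KO cells (SE 0.43, edgeR adjusted p = 0.631). The WT value was 0.57 without WT ID8 2 (edgeR adjusted p = 0.272). It was called by DESeq2 (adjusted p = 0.0244), with no filter on low counts (edgeR adjusted p = 0.0310), without Tim4KO naive 1 (edgeR adjusted p = 0.0460) and without Tim4KO naive 3 (edgeR adjusted p = 0.0369). The Tim4KO value was 0.11 with Tim4KO naive 1 left out. Gbp5 had the smallest unadjusted p of the members for the difference between these responses, at -1.45 on the log2 scale (SE 0.61, unadjusted p = 0.0383), and edgeR's adjusted p for it was 0.668. That difference was -0.91 without WT ID8 2 and -1.02 without Tim4KO naive 1.

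Gbp7 is a guanylate-binding protein tied to the delivery of oxidase and autophagy components to vacuoles. It measured 176, 118 and 125 CPM in WT naive and 297, 164 and 138 CPM in Tim4KO naive. After challenge the WT libraries had 161, 270.4 and 179 CPM and the Tim4KO libraries 164, 193 and 149 CPM. Tim4KO naive 1 was the highest library, and the groups overlapped in all 4 comparisons. The challenge difference was 0.54 in WT cells (SE 0.28, edgeR adjusted p = 0.153) and -0.24 in Tim4KO cells (SE 0.28, edgeR adjusted p = 0.607). The WT value was 0.32 without WT ID8 2 and 0.28 with upper-quartile scaling, neither called. It was called without Tim4KO naive 1, at 0.58 (edgeR adjusted p = 0.0446), and with no filter on low counts, at 0.66 (edgeR adjusted p = 0.00112). The Tim4KO value was 0.18 without Tim4KO naive 1.

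**Figure D2:**
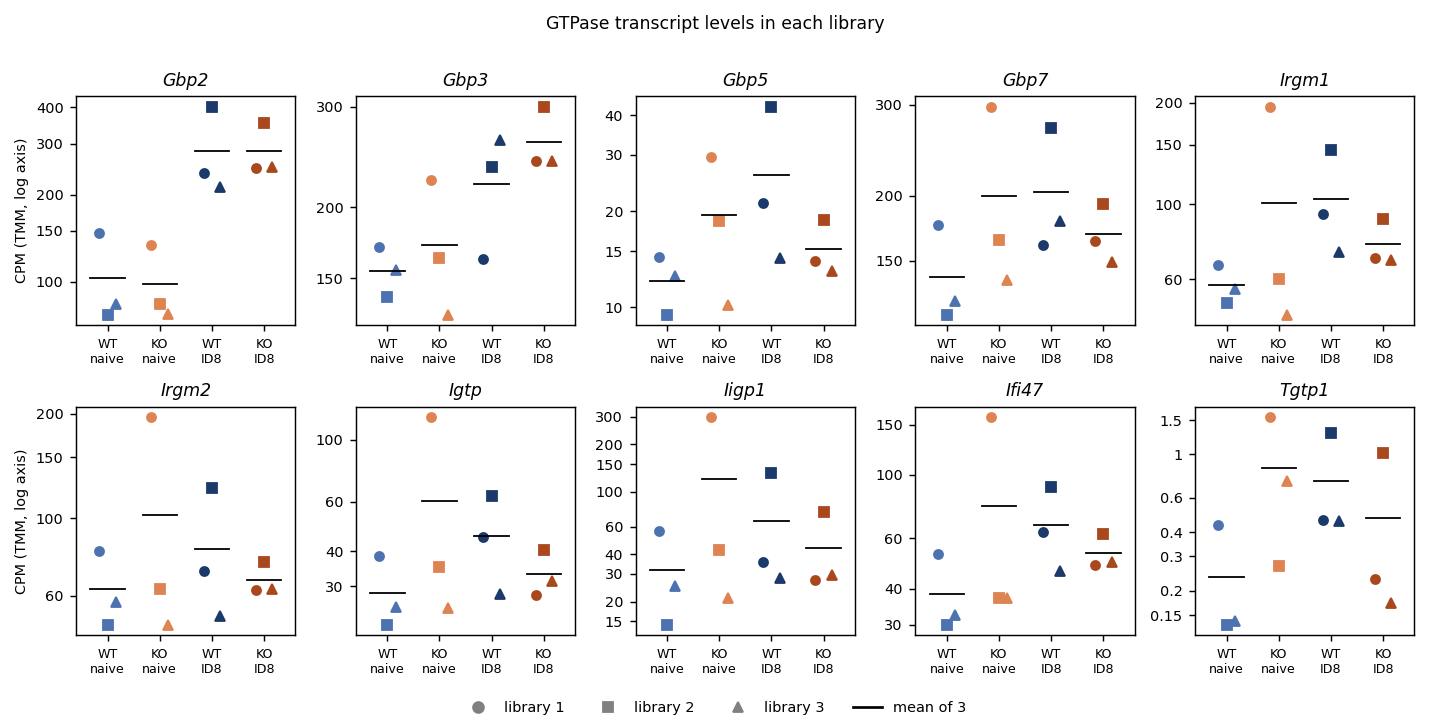
Level of each member in every library, as CPM scaled by TMM on a log axis; points are single libraries (circle, square and triangle for libraries 1, 2 and 3) and the line is the mean of 3. Gbp2 is higher in all 6 ID8 libraries than in all 6 naive libraries, while Tim4KO naive 1 is the highest library of all 12 for Gbp7, Tgtp1 and the other immunity-related members.

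None of the 3 regulators of the immunity-related family was called in any comparison over all 12 libraries. Irgm1, whose loss leaves mice open to intracellular bacteria, measured 66.1, 51.1 and 56.1 CPM in WT naive and 93.5, 144 and 72.1 CPM in WT ID8. All WT ID8 libraries lay above all WT naive libraries, and the difference was 0.84 on the log2 scale (SE 0.50, edgeR adjusted p = 0.213). The Tim4KO libraries had 194, 60.2 and 47.0 CPM of Irgm1 when naive and 69.4, 90.5 and 68.5 CPM after challenge. Here the ID8 libraries fell inside the wide naive range, and the difference was -0.40 (SE 0.49, edgeR adjusted p = 0.633). That difference was 0.53 with Tim4KO naive 1 left out (edgeR adjusted p = 0.195), and the WT difference, at 0.88, was then called (edgeR adjusted p = 0.0111). The WT difference was 0.55 without WT ID8 2 (edgeR adjusted p = 0.483).

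Irgm2 and Igtp are the other two regulators. Naive levels of Irgm2 were 80.4, 49.5 and 57.6 CPM in WT and 196, 62.6 and 49.4 CPM in Tim4KO cells, and challenged levels 70.4, 122 and 52.3 CPM in WT and 62.1, 75.0 and 62.6 CPM in Tim4KO cells. Naive levels of Igtp were 38.3, 21.8 and 25.3 CPM in WT and 121, 35.2 and 25.2 CPM in Tim4KO cells, and challenged levels 44.9, 63.0 and 28.2 CPM in WT and 27.8, 40.4 and 31.2 CPM in Tim4KO cells. For both genes Tim4KO naive 1 was the highest library, WT ID8 2 came next, and the groups overlapped in all comparisons. Their challenge differences in WT cells were 0.39 for Irgm2 (SE 0.52, edgeR adjusted p = 0.577) and 0.67 for Igtp (SE 0.58, edgeR adjusted p = 0.382). Leaving out WT ID8 2 gave 0.0075 and 0.39. In Tim4KO cells they were -0.63 for Irgm2 (SE 0.51, edgeR adjusted p = 0.465) and -0.87 for Igtp (SE 0.57, edgeR adjusted p = 0.358), and without Tim4KO naive 1 they were 0.27 and 0.16. The exons of the 2 genes overlap on the same strand in GENCODE vM21, and 11.8% of the 50-base stretches of Igtp also occur in Irgm2, so that reads there cannot be assigned to 1 of them with certainty.

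Of the effectors, Iigp1 varied most between libraries of a group, by a ratio of 14.1 among Tim4KO naive libraries. Iigp1 is among the first effectors to load onto Toxoplasma vacuoles. It measured 55.9, 14.2 and 25.1 CPM in WT naive and 299, 42.9 and 21.2 CPM in Tim4KO naive. After challenge it measured 35.7, 132 and 28.4 CPM in WT and 27.4, 73.8 and 29.4 CPM in Tim4KO cells. Each group had 1 library well above its other two, the groups overlapped, and the differences had wide errors: 1.05 for challenge in WT cells (SE 1.09, edgeR adjusted p = 0.471) and -1.48 in Tim4KO cells (SE 1.08, edgeR adjusted p = 0.410). The WT value was 0.065 without WT ID8 2 (edgeR adjusted p = 0.972), and the Tim4KO value 0.47 without Tim4KO naive 1 (edgeR adjusted p = 0.785).

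Ifi47, another effector-type GTPase, measured 52.9, 29.9 and 32.4 CPM in WT naive and 159.5, 37.3 and 37.3 CPM in Tim4KO naive. After challenge it measured 63.0, 90.8 and 46.1 CPM in WT and 48.3, 62.4 and 49.8 CPM in Tim4KO cells. In WT cells WT ID8 3 fell below WT naive 1, the highest of the WT naive libraries. The WT challenge difference was 0.80 (SE 0.57, edgeR adjusted p = 0.298). It was 0.84 and called with Tim4KO naive 1 left out (edgeR adjusted p = 0.0270), and 0.54 without WT ID8 2 (edgeR adjusted p = 0.563). In Tim4KO cells it was -0.55 (SE 0.56, edgeR adjusted p = 0.567), or 0.54 without Tim4KO naive 1. Ifi47 overlaps an olfactory receptor gene on the same strand and Gm12188 on the opposite strand, and the handling of strand is not given in the sources used here.

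Tgtp1 was near the limit of detection, with 2 to 19 counts per library. Naive libraries had 4, 2 and 2 counts in WT and 19, 2 and 13 in Tim4KO cells, and challenged libraries 4, 15 and 10 in WT and 3, 11 and 3 in Tim4KO cells. Its near-identical neighbour Tgtp2 had 242 to 3197 counts per library, and 79.4% of the 50-base stretches of Tgtp1 also occur in Tgtp2. The Tgtp1 row may therefore hold only a part of the reads of that gene, and its level is uncertain. Tgtp2 itself measured 262 CPM in Tim4KO naive 1 against 50.7 and 23.1 CPM in the other Tim4KO naive libraries, and 115 CPM in WT ID8 2 against 27.9 and 27.8 CPM in the other WT ID8 libraries. Both libraries were also the highest of their group for Iigp1 and Ifi47.

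Per kilobase of exon, which allows genes to be compared, Gbp3 and Gbp2 led in naive cells and Gbp2 led after challenge. In WT naive cells Gbp3 reached 47.4 ± 4.75 CPM per kb and Gbp2 40.8 ± 15.4 (mean ± SD, n = 3), and the 2 overlapped. In WT ID8 cells Gbp2 reached 113 ± 41.0 CPM per kb and Gbp3 67.4 ± 15.9 (mean ± SD, n = 3), with all Gbp2 values above all Gbp3 values. The same order without overlap held in Tim4KO ID8 cells, at 112 ± 24.0 for Gbp2 and 79.8 ± 10.5 for Gbp3 (mean ± SD, n = 3). Gbp7 came next in all 4 groups, then Irgm2, Ifi47 and Igtp in changing order with overlapping values. Gbp5 was ninth and Tgtp1 last in all 4 groups. Outside the members, Gbp2b, a paralogue of Gbp2, stood at 179 ± 24.6 CPM per kb in WT naive cells (mean ± SD, n = 3), above all members.

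Taken by family, 4 of 4 guanylate-binding and 6 of 6 immunity-related members had a positive challenge difference in WT cells. Their medians were both 0.82 on the log2 scale, against -0.037 over all tested genes, and 1 of the 10 was called. Upper-quartile scaling moved the median of all genes to -0.28 and that of the members to 0.56. In 3 of 10 members (Gbp2, Irgm1 and Tgtp1) all WT ID8 libraries lay above all WT naive libraries, against 23.3% of all tested genes, a share near that of the members, and for 21% all lay below. For Tgtp1 the gap was close to a tie near the limit of detection. It had 0.460 CPM (4 counts) in WT ID8 1 and 0.456 CPM (10 counts) in WT ID8 3, against 0.433 CPM (4 counts) in WT naive 1. The median over the members was 0.52 without WT ID8 2, and Gbp2 alone was called. Leaving out Tim4KO naive 1 gave a median of 0.86, and 6 members were called (Gbp2, Gbp3, Gbp5, Gbp7, Irgm1 and Ifi47), against 29.4% of all tested genes. That library is in neither WT group and enters this comparison only through the shared fit. Leaving out Tim4KO naive 3 gave 3 called members, and leaving out WT ID8 1 gave 2.

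In Tim4KO cells 2 members (Gbp2 and Gbp3) had a positive and 8 a negative challenge difference, with a median of -0.48 against -0.054 over all tested genes. Gbp2 and Gbp3 were also the 2 members whose groups did not overlap, against 23.7% of all tested genes above without overlap and 18.1% below. The signs changed when Tim4KO naive 1 was left out: 9 members had a positive difference, with a median of 0.37, and Gbp2 and Gbp3 were called, against 16.4% of all tested genes. In bulk RNA, fewer cells with a transcript and less transcript per cell cannot be told apart.

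The difference between the challenge responses, Tim4KO minus WT, was negative for 8 of 10 members with a median of -1.30 on the log2 scale, and edgeR called 0 of 10 members and 0% of all tested genes. At an unadjusted p under 0.05 there was 1 member, Gbp5, and 1186 genes in all. DESeq2 and limma voom also called 0 members. The members' values ran from -2.63 for Tgtp1 to 0.091 for Gbp3. Leaving out Tim4KO naive 1 moved their median to -0.37, with values from -1.92 for Tgtp1 to 0.32 for Gbp2, and leaving out WT ID8 2 moved it to -0.93. The interval for Gbp2 was -0.94 to 1.04, so these libraries leave room for a difference in its response of up to about that size.

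Loss of Tim4 was not followed by a called change in any member. In naive cells 9 of 10 members had a positive difference, with a median of 0.76, and edgeR called 0 of 10, against 0.0439% of all tested genes (0.0251% higher and 0.0188% lower). In challenged cells 9 of 10 had a negative difference, with a median of -0.38, and edgeR called 0 of 10, against 0.0565% of all tested genes (0.00627% higher and 0.0502% lower). No member reached an unadjusted p under 0.05 in either comparison, and DESeq2 and limma voom called 0 members in both. The genotypes overlapped for every member in both comparisons, while all 3 Tim4KO libraries lay above all 3 WT libraries for 7.34% of all tested genes in naive and 7.06% in challenged cells, and below for 6.84% and 8.56%. The naive comparison shares its libraries with the challenge comparisons, so these values are not independent of those above. The largest naive differences, 1.95 for Iigp1 and 1.95 for Tgtp1, had 95% intervals of -0.58 to 4.48 and -0.026 to 3.93.

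Both genotype patterns depended on a single library. With Tim4KO naive 1 left out, the members split into 5 positive and 5 negative values with a median of -0.0026. Iigp1 then differed by 0.023 in place of 1.95, and Irgm1 by -0.10 in place of 0.80. In challenged cells, leaving out WT ID8 2 gave 4 positive and 6 negative values with a median of -0.018. It turned the difference for Gbp2 from -0.0043 to 0.33, that for Iigp1 from -0.59 to 0.43 and that for Irgm2 from -0.29 to 0.12.

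Spread between libraries of a group was described for each family, without a test. The highest library of a group was a median of 2.23 times the lowest over 21 gene and group values of the immunity-related members, with a range of 1.21 to 14.1. For the guanylate-binding members it was a median of 1.65 times over 16 values, with a range of 1.22 to 2.98. Values with a library at or under 3 counts were left out. Over the 12 libraries, pairs of immunity-related members had a Pearson r of 0.736 to 0.974 (15 pairs, median 0.935). Pairs of guanylate-binding members had 0.442 to 0.892 (6 pairs, median 0.571), and pairs between the families 0.333 to 0.950 (24 pairs, median 0.636). Among the latter, Gbp7 ranged from 0.844 with Tgtp1 to 0.950 with Iigp1, and Gbp2 from 0.333 with Irgm2 to 0.551 with Irgm1. These correlations are descriptions: the libraries share groups, and the high library Tim4KO naive 1 enters all of them.

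Genes outside the families were ranked by likeness. Apart from the pathway lists, genes with a profile close to the mean of the members over the 12 libraries, among 10150 candidates, included Phc2 (r = 0.924), Tpst1 (r = 0.919), Creb3 (r = 0.914), Parp9 (r = 0.911) and Tor3a (r = 0.904). Over the 11 libraries other than Tim4KO naive 1 these values lay between 0.854 for Parp9 and 0.932 for Tpst1. Of the 21 tested genes of type I interferon signalling and its targets, 20 were above both other libraries of the group in Tim4KO naive 1, by a median of 1.39 on the log2 scale, and 19 in WT ID8 2, by a median of 0.70. Of 11 other interferon-gamma targets, 5 were above both in Tim4KO naive 1 and 8 in WT ID8 2. Over all tested genes, 36.4% were above both in Tim4KO naive 1 and 35.6% in WT ID8 2. The interferon-gamma targets were thus near the share of all genes in Tim4KO naive 1, where 3 of the 11 were below both. The part of these other genes in the members' differences was not tested.

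The wider families were examined next. Over all tested genes, challenge gave 19.5% called higher and 12.3% lower in WT cells, and 11.5% and 5.06% in Tim4KO cells. Of 7 other guanylate-binding proteins, 6 were tested and edgeR called 0 in all 5 comparisons. Among the genes not called was Gbp2b (log2 -0.43 for challenge in WT cells, SE 0.40, edgeR adjusted p = 0.415). At an unadjusted p under 0.05 there was 1 gene of this list in the interaction, against 1186 of the 15943 tested genes. In the other comparisons there were 0, against 999 to 7250 of all tested genes. Counts by other tools were not made for this list. Of 8 other immunity-related and very large inducible GTPases, 2 rose with challenge in WT cells: Gvin1 (log2 1.03, SE 0.26, edgeR adjusted p = 0.00764) and Gm4070 (log2 0.80, SE 0.27, edgeR adjusted p = 0.0325). These are near-identical copies, with 98.3% of the 50-base stretches of Gvin1 found in Gm4070, so they may be 1 signal. In Tim4KO cells 2 others fell: Gm4951, a relative of Iigp1 (log2 -0.94, SE 0.28, edgeR adjusted p = 0.0401), and Gm5431 (log2 -0.90, SE 0.28, edgeR adjusted p = 0.0428). No gene of the list was called lower in Tim4KO cells without Tim4KO naive 1, and fits that left out 1 library gave 0 to 2 such calls. In WT cells such fits gave 1 or 2 higher calls.

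Upstream, genes of interferon-gamma signalling moved in both directions after challenge. Of 11 tested genes, 1 rose and 2 fell in WT cells (Ptpn2 rose, by 0.47, edgeR adjusted p = 0.0132, and was not called with upper-quartile scaling) and 3 fell in Tim4KO cells. The shares called over all tested genes were 19.5% higher and 12.3% lower in WT cells, and 11.5% and 5.06% in Tim4KO cells. Ifngr1, the ligand-binding chain of the receptor, fell in both genotypes, by 0.69 in WT cells (SE 0.13, edgeR adjusted p = 0.00132) and by 0.67 in Tim4KO cells (SE 0.13, edgeR adjusted p = 0.00297). Irf2, a factor that competes with IRF1 for the same element, fell by 0.66 and 0.58 (SE 0.12 each, edgeR adjusted p = 0.0011 and 0.00457). Irf1 itself did not pass the test in WT cells (log2 -0.037, SE 0.41, edgeR adjusted p = 0.948). The ligand gene Ifng had 0 to 2 counts and Ifnb1 0 to 1 counts per library, too few to test.

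Downstream genes were called in part. Of 11 tested interferon-gamma targets, 5 rose and 1 fell in WT cells, and 2 rose in Tim4KO cells. In WT cells 19.5% of all tested genes were called higher and 12.3% lower, and in Tim4KO cells 11.5% were called higher. Upp1, a uridine phosphorylase, rose by 4.45 in WT cells (SE 0.47, edgeR adjusted p = 2.13e-05) and 2.21 in Tim4KO cells (SE 0.42, edgeR adjusted p = 0.00319). Wars, a tryptophan-tRNA synthetase with an interferon-responsive promoter, rose by 1.08 and 1.02 (SE 0.18 each, edgeR adjusted p = 0.000583 and 0.00176). The chemokine Cxcl10 rose by 3.61 in WT cells (SE 0.78, edgeR adjusted p = 0.0033), from 0.267 to 0.433 CPM in naive libraries to 1.51 to 6.96 CPM. Ciita, the master regulator of MHC class II genes, fell by 1.47 in WT cells (SE 0.53, edgeR adjusted p = 0.0475).

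Genes of the type I interferon pathway were examined beside the members. In WT cells 12 of 21 tested genes rose and 1 fell, against 19.5% and 12.3% of all tested genes, with a median of 1.29. In Tim4KO cells 2 rose, against 11.5% of all tested genes, with a median of -0.12. With Tim4KO naive 1 left out 7 rose, with a median of 0.73. The WT count was also unsteady, from 4 genes without WT naive 2 to 15 without Tim4KO naive 1, and it was 5 without WT naive 1, 6 without WT naive 3, 5 without WT ID8 2, 8 without Tim4KO ID8 3 and 8 with upper-quartile scaling. In Tim4KO cells it was 0 without either of Tim4KO naive 2 and 3 or of Tim4KO ID8 1 and 2, and 1 without Tim4KO ID8 3. Oasl1, an inhibitor of Irf7 translation, rose by 3.06 in WT cells (SE 0.49, edgeR adjusted p = 0.000892) and 1.68 in Tim4KO cells (SE 0.47, edgeR adjusted p = 0.0317). Ifit2, which binds foreign RNA, rose by 2.98 and 1.94 (SE 0.52 each, edgeR adjusted p = 0.00112 and 0.022). By edgeR 0 genes of the type I list were called for genotype or for the difference between the responses. At an unadjusted p under 0.05 there were 3 in naive cells, 3 in challenged cells and 6 for the difference. Of the 15943 tested genes, 999, 1935 and 1186 reached that level in these comparisons.

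Genes whose products work with the GTPases changed in both directions. Of 13 autophagy-conjugation and ubiquitin-adaptor genes, which guide GTPases to vacuoles, 3 rose and 4 fell in WT cells (1 and 5 with upper-quartile scaling). With TMM scaling, 19.5% of all tested genes were called higher and 12.3% lower in WT cells, and 11.5% higher in Tim4KO cells. Atg3 rose by 0.66 (SE 0.14, edgeR adjusted p = 0.00273) and Gabarap by 0.51 (SE 0.12, edgeR adjusted p = 0.00446). Gabarapl1 fell by 0.58 (SE 0.12, edgeR adjusted p = 0.00296) and Map1lc3a by 1.48 (SE 0.34, edgeR adjusted p = 0.00784). In Tim4KO cells 2 of the 13 rose, Atg7 by 0.54 (SE 0.14, edgeR adjusted p = 0.0144) and Gabarap by 0.42 (SE 0.12, edgeR adjusted p = 0.0246), and 0 to 3 rose in fits that left out 1 library.

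Prenylation gives some guanylate-binding proteins their membrane anchor. Of 5 genes for enzymes that attach the prenyl group or process the protein after that step, 2 rose in WT cells. Both were of the processing kind: Rce1 by 0.66 (SE 0.13, edgeR adjusted p = 0.00188) and Icmt by 0.61 (SE 0.13, edgeR adjusted p = 0.00282). Rce1 also rose in Tim4KO cells, by 0.56 (SE 0.13, edgeR adjusted p = 0.0093). The genes for attachment, Fnta, Fntb and Pggt1b, were not called in either genotype. For these enzymes and the inflammasome genes below, the shares over all tested genes were 19.5% higher and 12.3% lower in WT cells. In Tim4KO cells the shares were 11.5% and 5.06%. Of 8 inflammasome genes, in which guanylate-binding proteins feed bacterial products to caspases, 4 rose and 1 fell in WT cells, and 2 rose and 2 fell in Tim4KO cells. With upper-quartile scaling 1 rose in each genotype, and 2 rose in WT cells without any one of the WT naive libraries or WT ID8 2. Pycard, the adaptor of inflammasomes, rose by 0.88 and 0.92 (SE 0.18 each, edgeR adjusted p = 0.00226 and 0.00319). Nlrp3, a sensor, fell by 0.88 and 0.94 (SE 0.21 each, edgeR adjusted p = 0.00624 and 0.00783).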

How the data were processed

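The authors deposited 1 table of raw read counts by Ensembl identifier; STAR 2.5 and FastQC are named in the submitters' processing notes, with the builds mm10 and GRCm39 and no role for either. The counting program, annotation, strand and multi-mapping rules are not given in the sources used here. RNA was extracted from sorted cells and amplified with a SMART-Seq kit, per the labels. GENCODE vM21 named 52029 of 57010 identifiers and gave exon lengths and shared 50-base stretches.

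Counts were fitted in edgeR 4.0.16 (R 4.3.3): filterByExpr, TMM, 1 robust quasi-likelihood model over 12 libraries with a mean per group and 8 residual degrees of freedom, 5 comparisons, two-sided F tests and Benjamini-Hochberg adjustment over 15943 genes, called under 0.05. Standard errors were the absolute log2 change over the square root of F. CPM were scaled by TMM; likeness used log2 CPM with a prior count of 2 among genes averaging 50 counts or more. The model recovered known changes in counts simulated from the mean levels of these libraries, with the same modest spread for every gene. The simulation held no library that stood apart from its group, so it does not cover the spread seen for these members. No 2 libraries were copies. Members and lists were chosen with earlier results of these data known. All 10 members are named; of a list, up to 4 called genes with the smallest p and up to 4 others with the highest level were eligible, and others were named after their values were seen. Alternatives were other scalings, filters, DESeq2 1.42.0, limma 3.58.1 voom, fits of only the groups compared, a replicate block, background reads as a covariate, and each library left out. Counts per list under left-out libraries and upper-quartile scaling were added after seeing the data. Some results of the stated naming rule are not reported here.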

Additional observations from a re-analysis of the deposited data

How the results depend on the processing

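Members' log2 changes kept direction and side of the threshold in most of the values computed (977), were newly called in 18, lost a call in 1 and changed sign in 36. For all genes, calls for Tim4KO against WT in naive cells moved from 7 to 59 with no filter, 44 with DESeq2, 3 with voom and 2 with only the groups compared (1 to 29 with a library left out), and in ID8 cells from 9 to 264 with no filter, 223 with DESeq2 and 179 with background reads as a covariate (1 to 997). Challenge in WT cells gave 3102 calls with only the groups compared (3362 to 7230 with a library left out), and in Tim4KO cells 1222 to 3595. The interaction gave 73 calls with no filter, 4 with DESeq2 and 2 with the covariate (0 to 368). Members called for challenge in WT cells numbered 4 with no filter and 2 with DESeq2 (1 to 6 with a library left out), and in Tim4KO cells 2 with no filter, with voom and with only the groups compared (0 to 2). Upper-quartile scaling moved the median of all genes to -0.28 in WT and -0.17 in Tim4KO challenge and 0.13 in the interaction, and the calls to 1799 higher and 3508 lower in WT cells (3105 and 1962 with TMM) and to 1322 and 1394 in Tim4KO cells (1836 and 806 with TMM). No member's challenge difference changed sign with it.

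For Gbp2, values near 0 changed sign: the naive genotype difference was 0.0203 with the covariate (-0.34 to 0.29 with a library left out), the ID8 genotype difference 0.0864 with upper-quartile scaling, 0.0568 with a minimum count of 50, 0.0333 with voom and 0.0404 with only the groups compared (-0.19 to 0.33), and the interaction -0.0269 with no filter and -0.22 with the covariate (-0.30 to 0.37). With a library left out, naive genotype differences ranged from -0.0769 to 0.33 for Gbp3, -0.10 to 1.15 for Irgm1, -0.15 to 1.06 for Irgm2 and -0.0279 to 1.37 for Ifi47. Those in ID8 cells ranged from -0.54 to 0.12 for Irgm2 and -1.20 to 0.43 for Iigp1. The Gbp3 interaction ranged from -0.15 to 0.31. Challenge differences in Tim4KO cells ranged from -0.66 to 0.11 for Gbp5, -0.44 to 0.18 for Gbp7, -0.73 to 0.53 for Irgm1, -0.95 to 0.27 for Irgm2, -1.23 to 0.16 for Igtp, -2.05 to 0.47 for Iigp1 and -0.87 to 0.54 for Ifi47. The cause was not tested.

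Replicate numbers are shared by the groups. Same-numbered libraries deviated together with r over 0.1 in 6 of 18 pairs (-0.0947 to 0.328), so the numbers do not pair the libraries over all groups. All 3 pairs of WT naive with WT ID8 passed (0.103, 0.105 and 0.309). Unlike-numbered pairs of these groups also passed, at 0.140 for WT naive 1 with WT ID8 2 and 0.156 for WT naive 2 with WT ID8 1. With the replicate block 3 genes were called for genotype in naive cells, 14 in ID8 cells, 4619 for challenge in WT and 2562 in Tim4KO cells. Gbp2 remained the 1 member called in each challenge comparison, and its ID8 genotype difference was 0.0135.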
